A study of Homo sapiens with 2 samples.

Results

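Imprinted genes are transcribed mainly from the copy inherited from 1 parent, and they sit in clusters under the control of a region whose DNA methylation differs between the maternal and the paternal copy. On the methylated copy such regions also carry trimethylation of histone H3 at lysine 9, a mark that KDM4A removes, together with methylation of lysine 36. Many imprinted genes act in fetal growth, metabolism and the nervous system, and several are altered in tumours. The gene set described here holds 32 named imprinted genes from 18 domains, each read through every probe set that the platform annotation gives to that gene and to no other. Of the 32 genes, 23 were measured in this way, by 69 probe sets, out of 17689 genes and 34880 such probe sets on the array. ZIM2, IGF2, H19 and SNRPN were present only on probe sets that name several genes. PLAGL1, HYMAI, NAP1L5 and DIRAS3 were not analysed here. SLC22A18 had no value under that name. Under its newer name, SLC67A1, it had a log2 difference of knockdown minus control of 0.092 on 1 probe set. It was counted as a neighbour of its domain and not among the 23 measured members.

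RNA came from LNCaP cells, an androgen-responsive line of human prostate carcinoma, and was read on Affymetrix U133 Plus 2.0 arrays. The control culture received virus made with pLKO.1 alone, and the knockdown culture virus encoding a hairpin RNA that targets KDM4A (shKDM4A). Both viruses were packaged in HEK293T cells, a human embryonic kidney line, and both cultures were harvested 3 days after infection. Each group had 1 array and the knockdown rests on 1 hairpin construct, so nothing below could be checked in a replicate or tested, and there are no p-values.

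The deposited numbers are RMA values (robust multi-array averaging), with every probe set centred on the mean of the 2 arrays. Their log base is not given in the sources used here; it was taken as 2, the base RMA works on, and every fold below rests on that. One array's value is therefore the other's with the sign turned, and the signal level, background and detection of a probe set cannot be read from them. The difference used throughout is knockdown minus control on the log2 scale, per probe set and as the mean per gene. Where an SD stands beside a gene, it describes how its probe sets differ on these arrays and not how cultures differ; pooled over all genes it was 0.33. A gene was called when its mean difference was 2-fold or more, a rule of size and not a test. KDM4A itself was 2.26-fold lower in the knockdown (-1.18 ± 0.40, SD over 2 probe sets).

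The other gene lists set the context in ranges and counts. The mitosis genes were the list that moved most, with a median of -2.09, 18 of 24 genes past 2-fold downward, and DLGAP5 farthest from 0 at -4.20. Its part in the values below was not tested. Luminal prostate markers had a median of 0.10 over 13 genes, with FOXA1 the only one past 2-fold in the mean (-1.16 ± 1.75), on probe sets at -2.39 and 0.079 that do not share a direction. Markers of embryonic kidney cells (0.055 over 8 genes, NEFL farthest from 0 at 0.49), leukocytes (0.012 over 5, CD3D at 0.24) and fibroblasts and smooth muscle (0.0040 over 11) lay near 0 in median, and of these 3 lists only the stromal gene ACTA2 passed 2-fold (2.14 ± 2.42), on probe sets at 0.43 and 3.85. Because levels are lost, these markers could not show whether the cells express the defining genes of the labelled line. In bulk RNA, fewer cells that express a gene and less RNA per cell cannot be told apart.

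Among the imprinted genes, the PEG3 locus was lower in the knockdown and the other measured members differed by less than 2-fold. PEG3 and PEG3-AS1 were at least 2-fold lower, which is 2 of 23 genes (8.70%), against 1.44% of all 17689 genes called in that direction. No member was at least 2-fold higher, against 1.16% of all genes. At a looser rule of 1.5-fold there were the same 2 lower genes, against 4.38% of all genes, and 1 higher gene, NDN, against 4.3%. PEG3 and PEG3-AS1 share a locus and do not count as independent members. The members were also chosen with earlier results of these data known, so these shares are descriptive. The median of the 23 genes was 0.077, beside 0.020 for all genes, and 14 lay above 0 and 9 below it. Outside the PEG3 domain, 21 genes ran from -0.33 (GNAS) to 0.99 (NDN), with a median of 0.081. Of all 23 members, 11 lay between the quartiles of all genes (-0.14 and 0.18), 8 above them and 4 below.

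**Figure D1:**
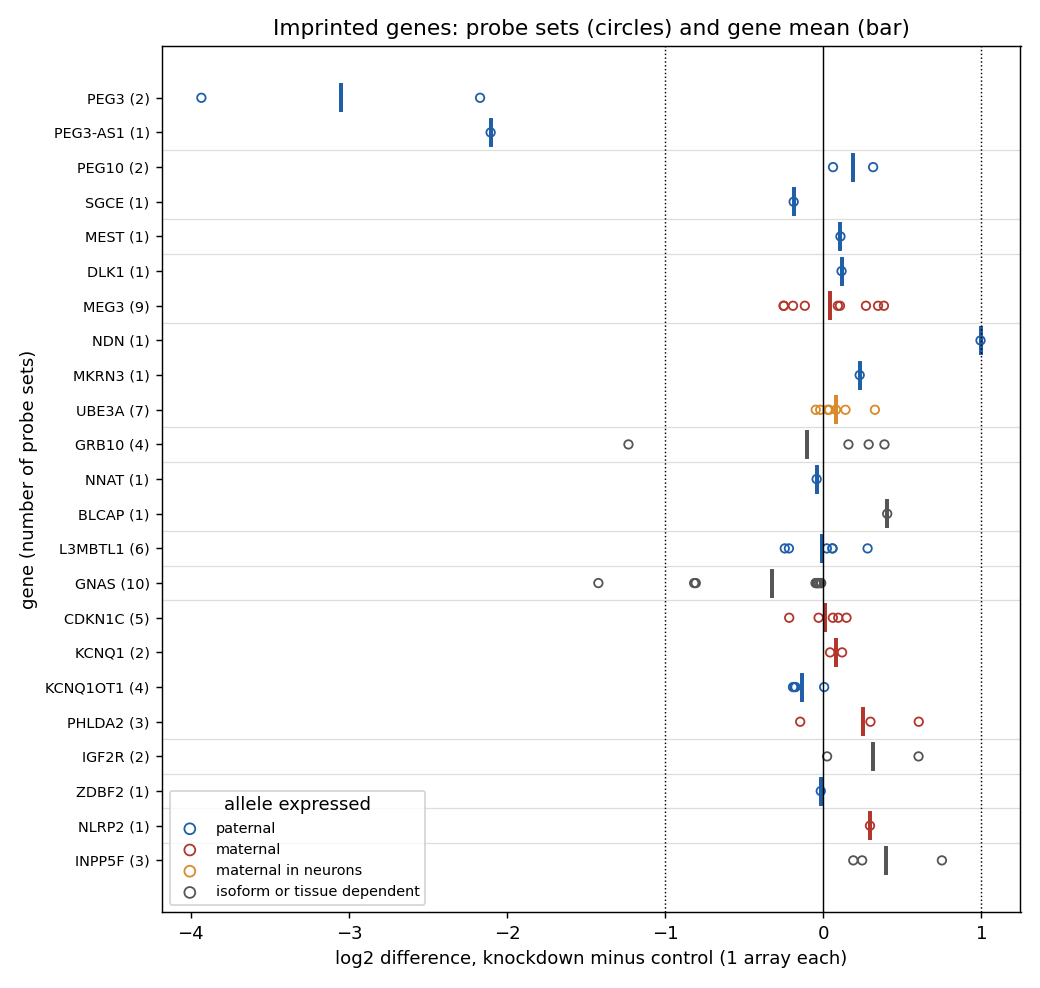
Each circle is 1 probe set and each bar the mean of a gene, as the log2 difference of knockdown minus control from 1 array each, with genes ordered by domain, grey lines between domains, the number of probe sets in brackets and dotted lines at 2-fold. PEG3 and PEG3-AS1 lie left of the lower dotted line, NDN lies at the upper one, and the circles of GRB10 and GNAS are split.

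PEG3 encodes a large zinc finger protein and is expressed from the paternal copy. Its first probe set (209242_at) read 1.09 in the control and -1.09 in the knockdown. Its second (209243_s_at) read 1.97 in the control and -1.97 in the knockdown. Both were thus higher in the control array, by 4.50-fold and 15.3-fold. The gene mean was -3.05 ± 1.25 (SD, 2 probe sets), an 8.29-fold lower value, and PEG3 took the 8th place from the bottom among 17689 genes. The spread between its probe sets was well above the pooled one, so the direction is shared by both while the size is not settled. Without the probe set ending in _s_at, a suffix of probe sets whose probes may hit more than a single transcript, the value was -2.17.

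PEG3-AS1, a noncoding RNA read from the opposite strand of the same locus, lay within PEG3 in the RefSeq annotation. Its single probe set (230068_s_at) read 1.05 in the control and -1.05 in the knockdown, a 4.30-fold lower value (-2.10), the 38th place from the bottom. The whole call rests on that 1 probe set of the _s_at kind, and leaving such probe sets out left 1 called gene among 18. Whether the probe sets of either overlapping gene also read RNA of the other was not tested. A further probe set of this domain names both PEG3 and ZIM2, an imprinted zinc finger gene that shares the start of PEG3, and is therefore given to neither. It read 0.27 in the control and -0.27 in the knockdown, a difference of -0.54 in the same direction but short of 2-fold.

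The genes around this locus were examined in RefSeq order, taking the 10 nearest measured genes on each side of the domain, a choice made after the values had been seen. None of these 20 genes passed 2-fold in either direction, and their median was 0.044. Among all genes only 1.44% were 2-fold lower and 1.16% higher, so a count of 0 in 20 is usual. The nearest on one side, ZNF835 and ZNF71, lay at -0.13 and 0.13 ± 0.31 (SD, 4 probe sets). The nearest on the other side, USP29 and ZNF264, both reported as imprinted with PEG3, lay at 0.29 and -0.38 ± 0.41 (SD, 3 probe sets). The lowest of the 20 was ZNF805, a zinc finger gene at -0.56, and the highest VN1R1, a vomeronasal receptor gene at 0.38. The large differences of this stretch were thus those of PEG3 and the RNA antisense to it.

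**Figure D2:**
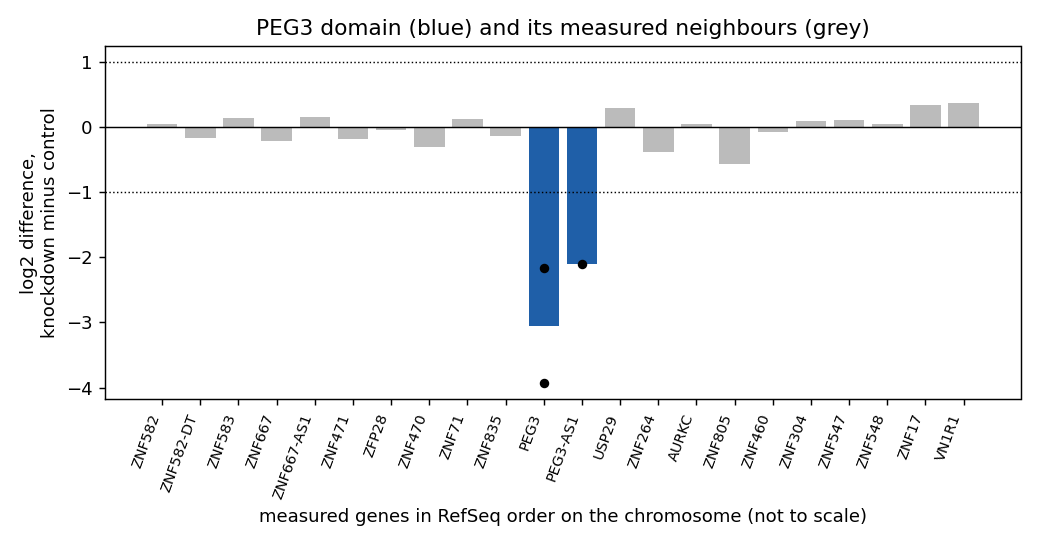
Bars give the mean log2 difference (knockdown minus control, 1 array each) of PEG3, PEG3-AS1 and the 10 nearest measured genes on each side in chromosomal order, not to scale; black points are the probe sets of the blue genes and dotted lines mark 2-fold. The grey neighbours lie between -0.56 and 0.38, above both blue bars.

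The member with the largest higher value was NDN, a paternally expressed growth suppressor of the MAGE family in the SNRPN-UBE3A domain, the region of Prader-Willi and Angelman syndromes. Its single probe set read -0.50 in the control and 0.50 in the knockdown, a difference of 0.99 (1.99-fold) that fell just short of the 2-fold rule, and took the 209th place from the top. MKRN3, a ubiquitin ligase gene and NDN's neighbour in the same domain, is also paternally expressed. Its single probe set read -0.11 and 0.11, a difference of 0.23 (1.17-fold), and holds a value that recurs elsewhere in the data. UBE3A, a ubiquitin ligase expressed from the maternal copy in neurons, lay at 0.077 ± 0.13 (SD, 7 probe sets), with probe sets from -0.048 to 0.33. The 3 measured members of the domain lay above 0, with only NDN near 2-fold. The member SNRPN was present only on probe sets that name several genes. Of the 8 such probe sets of this domain, 6 lay below 0, the lowest at -0.65. Other genes between the measured members, which are not members themselves, lay on both sides of 0. MAGEL2, which lies next to NDN and comes from the same gene family, lay at 0.11, NPAP1 at -0.28, and the noncoding RNAs PWAR5 and PWAR6 at -1.46 and -0.76. The domain as a whole thus had no shared direction.

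The stretches before the starts of NDN and MKRN3 are shown because these genes share a domain and a parental bias while their values differ. Each value rests on 1 probe set. Both are the 250 bases before the RefSeq start in GRCh38.p14, written 5′ to 3′ on the gene's own strand, with matches to TGCCGC or its reverse complement in capitals. TGCCGC is the core bound, when methylated, by ZFP57, a protein that keeps imprints. NDN lies at chr15:23687306-23687555 on the minus strand and MKRN3 at chr15:23565424-23565673 on the plus strand.
NDN: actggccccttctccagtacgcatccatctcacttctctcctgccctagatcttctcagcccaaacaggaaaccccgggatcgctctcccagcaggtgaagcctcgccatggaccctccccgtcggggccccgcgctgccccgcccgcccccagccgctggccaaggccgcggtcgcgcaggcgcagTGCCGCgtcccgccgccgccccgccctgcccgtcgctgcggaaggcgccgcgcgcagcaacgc
MKRN3: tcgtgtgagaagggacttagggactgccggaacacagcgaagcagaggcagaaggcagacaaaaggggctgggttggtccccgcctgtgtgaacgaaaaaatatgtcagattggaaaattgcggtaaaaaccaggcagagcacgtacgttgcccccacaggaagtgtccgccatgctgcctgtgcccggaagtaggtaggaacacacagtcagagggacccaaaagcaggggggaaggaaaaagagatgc
The NDN stretch held 30 CpG sites and 1 match, and the MKRN3 stretch 10 CpG sites and 0 matches.

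Over all RefSeq windows of 300 bases, from 250 before to 50 after a start, 19 of the 32 members had at least 1 window and 49 windows in all. TGCCGC was found on either strand in 22 of these 49 (44.9%), against 16.7% of all 35116 windows. The YY1 motif GCCATNTT was found in 5 of 49 (10.2%), against 6.58%, and a longer CTCF consensus in 0, against 0.0655%. The CTCF consensus can contain the reverse complement of TGCCGC, when the N before GGCAG is C, and the YY1 motif shares no such stretch with either. The median window held 18 CpG sites among members and 14 among all windows. TGCCGC itself holds a CpG, and the windows were not matched for CpG content. Windows can overlap, within a gene and between genes, and were not counted once per gene. Of the 19 members with a window, 13 were measured, so some windows belong to genes without a value here. A PLAGL1 window and the HYMAI window held the same counts, 2 matches to TGCCGC and 39 CpG sites. UBE3A, with a difference near 0, held the YY1 motif in 2 of its 3 windows, and BLCAP, at 0.40, in 1 window. The other windows with this motif were those of PLAGL1 and SNRPN, which had no gene value. A match describes letters in a window and not a bound site. The table used held no window for PEG3, PEG3-AS1 or ZIM2.

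GNAS and GRB10 had probe sets that pointed to different sizes or directions. GNAS, which encodes the stimulatory G protein alpha subunit and uses several starts with different parental bias, was read by 10 probe sets. The 6 ending in _x_at, which can cross-match other transcripts, lay between -0.049 and -0.014. Of the other 4, 217058_at lay at -0.035, 228173_at at -0.81, 214157_at at -0.82 and 229274_at at -1.42, a 2.68-fold lower value. All 10 lay below 0, but 3 were well apart from the rest, so the mean of -0.33 ± 0.50 (SD, 10 probe sets) describes neither set. It was -0.77 without the _x_at probe sets and -0.042 as a median over probe sets. Which GNAS transcript each probe set reads is not given in the sources used here.

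GRB10, an adaptor that dampens signalling from the insulin and IGF receptors, is expressed from either parental copy by tissue and isoform. Its probe sets 209409_at, 209410_s_at and 210999_s_at lay at 0.39, 0.29 and 0.16, while 215248_at read 0.62 in the control and -0.62 in the knockdown, a difference of -1.23. The mean of -0.10 ± 0.76 (SD, 4 probe sets) turned to 0.22 as a median over probe sets and to -0.42 without probe sets ending in _s_at, so the gene has no settled direction. Read by the probe set farthest from 0 of each gene, 4 of 23 members were at least 2-fold lower (17.4%), adding GNAS and GRB10, against 3.59% of all genes by the same reading. This reading favours genes with more probe sets. Members had 69 probe sets over 23 genes and all genes 34880 over 17689, so the shares are not like for like. Counted by probe set, 5 of 69 were at least 2-fold lower (7.25%), against 2.39% of all 34880 probe sets of 1 gene, and 0 were 2-fold higher, against 1.48%. The 5 were the 2 of PEG3 and 1 each of PEG3-AS1, GRB10 and GNAS.

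IGF2R and PHLDA2 lay above the upper quartile of all genes, and DLK1 within the quartiles, all by less than 1.5-fold. IGF2R, the receptor that clears IGF2 and sorts lysosomal enzymes, lay at 0.31 ± 0.41 over 2 probe sets (0.024 and 0.60). PHLDA2, which restrains placental growth from the maternal copy, lay at 0.25 ± 0.38 over 3, from -0.15 to 0.60. DLK1, a paternally expressed membrane protein related to Notch ligands, read -0.058 in the control and 0.058 in the knockdown (0.12). The probe sets of IGF2R and PHLDA2 differed from each other by more than the gene means lay from 0. INPP5F, a phosphoinositide phosphatase with a paternally expressed variant, lay at 0.39 ± 0.31 over 3 probe sets, all above 0 and up to 0.75, 2 of them values that recur elsewhere in the file. It was, with BLCAP (0.40, 1 probe set), a small membrane protein, among the higher members after NDN.

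CDKN1C, the maternally expressed inhibitor of cyclin-dependent kinases also called p57, lay at 0.011 ± 0.14 over 5 probe sets, from -0.22 to 0.15. It took a value below 0 under 3 of the other settings, between -0.22 and -0.012. The list of other inhibitors had a median of 0.14 over 6 genes, with 5 above 0 and CDKN1A (p21, 1.93) 2-fold higher. The 1 below 0 was CDKN3 (-1.86 ± 0.22, 2 probe sets), which is listed by its name but is a phosphatase of mitotic cells and not an inhibitor of this class. KCNQ1, a potassium channel gene of the same domain, lay at 0.081 ± 0.054 (SD, 2 probe sets). KCNQ1OT1, the paternally expressed RNA antisense to KCNQ1, lay at -0.14 ± 0.095 over 4 probe sets, 3 of them between -0.19 and -0.18 and the other at 0.0051. Unlike at the PEG3 locus, the sense gene and its antisense RNA here lay on either side of 0, both by less than the pooled spread. MEG3, a maternally expressed noncoding RNA paired with DLK1, had 9 probe sets from -0.25 to 0.38 and a mean of 0.043 ± 0.25. Of its probe sets, 4 lay below 0 and 5 above, which leaves MEG3 with no direction.

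The remaining members lay between -0.19 and 0.29. PEG10, a protein derived from a retrotransposon, lay at 0.19 ± 0.18 (SD, 2 probe sets), and its neighbour SGCE, epsilon-sarcoglycan, at -0.19. These are mirrored values within 1 domain, both inside the pooled spread. MEST, a hydrolase-like protein, lay at 0.11, NNAT, a small membrane proteolipid within BLCAP, at -0.042, and ZDBF2, a zinc finger protein, at -0.016. L3MBTL1, a reader of methylated histones, lay at -0.0075 ± 0.20 over 6 probe sets, and NLRP2, a maternally expressed NOD-like receptor, at 0.29. All of these except PEG10 and L3MBTL1 rest on 1 probe set.

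**Figure D3:**
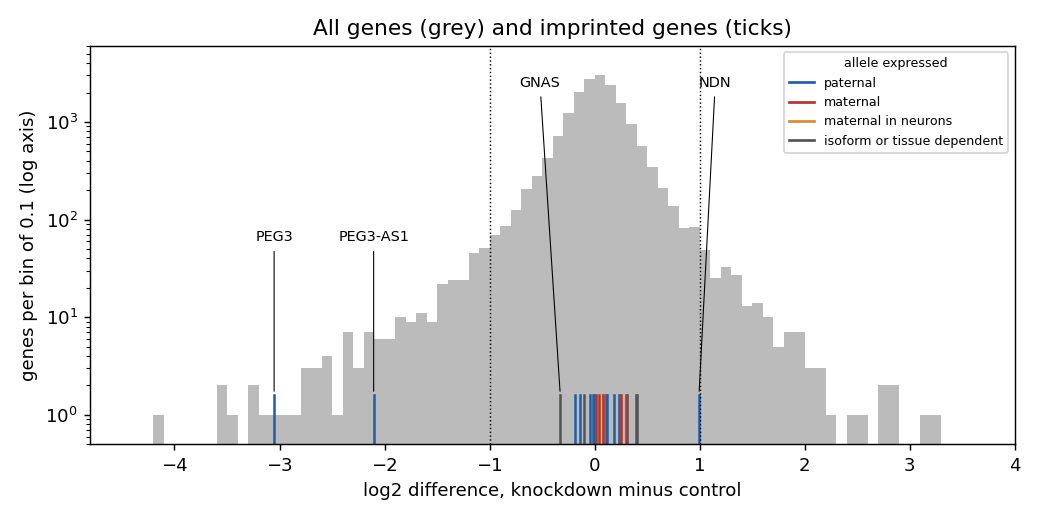
Grey bars count all 17689 genes by log2 difference (knockdown minus control, bins of 0.1, log axis). Coloured ticks mark the 23 imprinted genes by the allele labelled as expressed, which was not measured here. Dotted lines mark 2-fold. PEG3 and PEG3-AS1 sit in the lower tail at -3.05 and -2.10, and the other 21 ticks lie from -0.33 to 0.99.

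By parental bias, 12 measured paternally expressed genes had a median of -0.012, with 7 below 0 and 5 above, and held both called genes. That median was 0.046 without probe sets ending in _x_at or _s_at and 0.012 with medians over probe sets, so its sign is not settled. Without the PEG3 domain the paternal median was 0.050 over 10 genes, with 5 on each side of 0. The 5 maternally expressed genes, MEG3, CDKN1C, KCNQ1, PHLDA2 and NLRP2, lay between 0.011 and 0.29 with a median of 0.081, which was -0.026 over the 3 that had a value without probe sets ending in _x_at or _s_at. The order of the paternal and maternal medians turned in that setting. SLC22A18, also maternally expressed, is not among these genes because it was measured under the name SLC67A1. The 5 genes whose bias depends on isoform or tissue had a median of 0.31 and ran from -0.33 to 0.40. The difference between these groups was not tested, since genes are not replicates of a condition. The parental labels are general knowledge of each gene. The arrays did not read alleles, so which copy was transcribed in these cells is not known. By product, 3 noncoding RNAs had a median of -0.14 and 20 protein-coding genes one of 0.094, with 1 called gene in each.

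Other imprinted genes, the genes around the domains and the factors that keep imprints gave the setting for these values. The counts below stand beside 1.44% of all genes at least 2-fold lower and 1.16% higher, so few or none are usual in lists of this size. Of 44 other imprinted genes measured, 22 lay below 0 and 22 above, none passed 2-fold and the median was -0.00099. The farthest were OSBPL5, an oxysterol-binding protein gene at 0.66 ± 0.40 (SD, 2 probe sets), NAA60, an acetyltransferase gene at 0.40, SMOC1 at -0.40 and ZNF264. Of 49 listed neighbours of the domains, none was 2-fold lower and 1 was 2-fold higher, with a median of 0.00059. That gene was COBL, an actin nucleator next to GRB10 (1.02 ± 0.016, SD, 2 probe sets), which lay at 0.99 once the median difference of all probe sets was subtracted. Among 28 imprint upkeep factors, 17 lay below 0 and the median was -0.029. One was at least 2-fold lower, CBX5, the HP1 alpha reader of H3K9 methylation, at -1.11 ± 1.16 over 6 probe sets that ran from -2.58 to 0.0033, and at -0.77 as their median. The next lowest were HELLS, a chromatin remodeller needed for DNA methylation, at -0.75 ± 0.24 with all 4 probe sets below 0, and UHRF1, which brings DNMT1 to replicated DNA, at -0.71 on 1 probe set. The highest was KDM1B, a histone H3K4 demethylase, at 0.55 ± 0.028 (SD, 2 probe sets). ZFP57 lay at -0.0056, its partner TRIM28 at -0.21 and DNMT1, the maintenance methyltransferase, at -0.15, each on 1 probe set. The insulin and IGF axis had a median of -0.048 over 17 genes, none past 2-fold. Its ends were IGFBP3, a binding protein (0.64 ± 0.12, SD, 2 probe sets), GRB14 (0.32), IGF2BP3 (-0.27 ± 0.44, 4 probe sets) and IGFBP2 (-0.26).

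**Figure D4:**
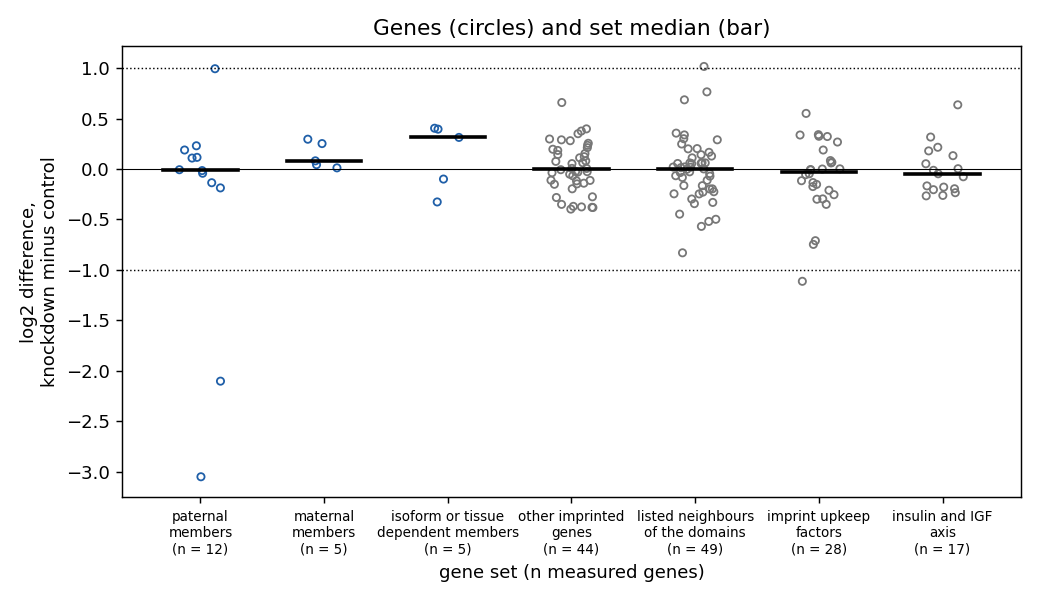
Each circle is the mean log2 difference of a gene (knockdown minus control), black bars are set medians, and dotted lines mark 2-fold; blue sets hold imprinted members and grey sets the other imprinted genes, listed neighbours, imprint upkeep factors and insulin and IGF axis, with n measured genes; the mitosis, inhibitor and marker lists and UBE3A, maternal in neurons, are not drawn. The medians of these 7 sets lie between -0.048 and 0.31, and PEG3 and PEG3-AS1 are the circles below -2 among the paternal members.

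Some values recur exactly at several probe sets of the file, which is a limit on reading small differences. Of 44630 probe sets, 15614 (35.0%) shared their pair of values with at least 1 other, up to 22 times, with a median absolute difference of 0.14 against 0.23 for the rest. Among the members 29 of 69 probe sets did (42.0%), including both of PEG10, the 1 of MKRN3, 7 of 9 of MEG3, 3 of 4 of KCNQ1OT1, 4 of 6 of L3MBTL1, 2 of 3 of INPP5F and 3 of 5 of CDKN1C. UBE3A had 3 of 7, and KCNQ1, IGF2R, PHLDA2 and GNAS 1 each. A MEG3 probe set (227390_at) and a KCNQ1OT1 probe set (204486_at) even held the same value, -0.19. None of the probe sets of PEG3, PEG3-AS1, NDN or GRB10 recurred. What makes values recur was not tested.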

How the data were processed

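RNA of 1 control and 1 KDM4A knockdown culture of LNCaP cells was measured, 3 µg of total RNA per array. The deposited values were read as log2; RMA is named, with no version, in the submitters' processing notes. In every row the 2 values sum to 0 within 1e-06. How the values were centred, their log base and whether rows were filtered is not stated there or in the labels; base 2 was assumed because RMA works on it. Gene names came from the platform annotation; by Entrez identifier, 34839 of the 34880 probe sets with 1 gene matched RefSeq genes of GRCh38.p14. Several genes were named by 1619 probe sets and none by 8131. AFFX control probe sets were left out. Dim probe sets could not be filtered.

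Members and lists, with their parental labels and domains, were chosen with earlier results of these data known. Named genes were all measured members, KDM4A, the 2-fold genes of each list or otherwise its 2 highest and 2 lowest; marker and mitosis lists gave counts, medians and the genes farthest from 0. ZFP57, TRIM28, DNMT1, HELLS, UHRF1, KDM1B and the genes beside PEG3 and NDN were added after seeing values. Alternatives were other summaries of probe sets, leaving out _x_at and _s_at probe sets or genes with 1 probe set, subtracting the median difference, and rules of 1.5-fold, 3-fold and probe sets on the same side of 0. The calculation was tested on simulated data with planted shifts far past the 2-fold rule. That simulation did not try shifts near 2-fold. The number of arrays limits the precision. Python 3.11.15, numpy 2.4.6 and pandas 2.3.3 were used.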

Additional observations from a re-analysis of the deposited data

How the results depend on the processing

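No paired analysis was possible because each group has 1 array and no test was made, and no replicate could be left out. The counts of 2 members at least 2-fold lower and 0 higher were the same with medians over probe sets, after subtracting the median difference (0.023), under a 3-fold rule and with probe sets required to lie on the same side of 0. The lower count was 1 of 18 without probe sets ending in _x_at or _s_at (5.56%, against 1.52% of all genes), where PEG3-AS1 has no value. It was 1 of 13 when genes with a single probe set were left out (7.69%, against 1.57%). With the probe set farthest from 0 it was 4 of 23 (17.4%, against 3.59%), which adds GRB10 and GNAS, though this reading favours genes with more probe sets. The higher count was 1 under a 1.5-fold rule, the gene being NDN. Without _x_at and _s_at probe sets the medians were 0.019 for members, 0.046 for paternally and -0.026 for maternally expressed members and -0.12 for the insulin and IGF axis. With the probe set farthest from 0 they were 0.12 for members, 0.046 for paternally and 0.29 for maternally expressed members, -0.046 for listed neighbours and -0.10 for imprint upkeep factors. The last was -0.082 with single-probe-set genes left out. These settings change which probe sets or genes enter. Signs changed for MEG3, CDKN1C, GRB10 and L3MBTL1 under at least 1 setting. PEG3, PEG3-AS1, KDM4A, CBX5, COBL, CDKN1A, CDKN3, FOXA1, ACTA2, DLGAP5, PWAR5 and NIPSNAP2, all past 2-fold, kept their direction in each setting that gave them a value. NIPSNAP2, CDKN1A and PEG3-AS1 had none without _x_at and _s_at probe sets. Most of these settings could not turn a direction. With 1 probe set, as for PEG3-AS1, CDKN1A, DLGAP5, PWAR5 and NIPSNAP2, the mean, median and farthest value are the same number. With 2, as for the others except CBX5, the mean and median are the same. Subtracting 0.023 cannot turn a value past 2-fold. Array number limits all values, and signal over background could not be read.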

Other observations

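Noncoding RNAs between SNRPN and UBE3A lay lower, opposite to NDN in the same domain. They were noticed after the values had been seen and are in none of the lists. PWAR5, named for the Prader-Willi and Angelman region, read 0.73 in the control and -0.73 in the knockdown on 1 probe set, a 2.75-fold lower value (-1.46). The probe sets of PWAR6, the measured gene after it in RefSeq order, lay at -1.24 and -0.27. Probe sets that name several genes of this domain, among them the only ones that read SNRPN, entered no gene value. There were 8, of which 6 lay below 0, and the lowest were -0.65, -0.63 and -0.57. Further up the domain, PWRN1 lay at 0.0043 and 0.56 and PWRN2 at -0.040. The 5 such probe sets of the IGF2-H19 domain ran from -0.31 to 0.35.

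STX16, a syntaxin gene before GNAS in RefSeq order, lay lower on all 4 probe sets, at -0.61, -0.85, -0.85 and -1.01, with a mean of -0.83 ± 0.16 (SD, 4 probe sets). Of the measured genes between STX16 and GNAS in this order, NPEPL1 lay at -0.035 and LOC105372695 at -0.15 on 1 probe set. After GNAS, NELFCD and CTSZ lay at -0.33 and -0.34. None of the 20 nearest measured genes of this domain passed 2-fold as a gene. Over all domains with a measured member, 279 neighbours in RefSeq order held 2 genes at least 2-fold lower and 1 higher, with a median of -0.0062. The lower genes were PWAR5 and NIPSNAP2, and the higher one COBL. Among all genes, 1.44% were at least 2-fold lower and 1.16% at least 2-fold higher. The neighbours include SLC67A1, which is the listed member SLC22A18 under its newer name.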
